A study of Canis lupus familiaris with 6 samples.

Results

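The genes described here lie in one run of dog chromosome 24, from SMOX to UBE2V1, whose RNA levels shifted together between wild-type and E-cadherin knockout MDCK cells. MDCK type II cells are a dog kidney line that forms polarized epithelial sheets in culture. RNA was measured in 3 libraries of wild-type cells (WT) and 3 of cells of that line with a knockout of CDH1, the E-cadherin gene (KO), all grown in one medium with serum and without other treatment. The labels give neither the number of knockout clones nor the cultures behind each library, so spreads between libraries may be technical. They also differ on density at harvest, giving confluent dishes in one place and sub-confluent growth in another.

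A list of 60 genes was taken from the run, out of 12851 genes in the deposited table. By gene order, 160 tested genes with a symbol were placed from SMOX to UBE2V1. Rows without a symbol, 2430 of the 12851, had no place in that order. Of the 60, 55 had a row under their own symbol, and the 55 passed the filter on low values (a mean of at least 10 normalized counts over the 6 libraries). The remaining 5, AHCY, CPNE1, E2F1, PKIG and PREX1, were not analysed here. The run, and with it the members, was selected on the log2 fold change of KO over WT in these same libraries, so that difference is given below as a description, with no test. Levels are normalized counts, the authors' reads per gene scaled between libraries. Log2 fold changes are KO minus WT, fitted on log2(value + 1), and folds are ratios of group means.

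Neighbouring genes on a chromosome need not work together: each usually has its own promoter, and what neighbours share is a stretch of DNA and its chromatin. The members accordingly span many processes. Among them are regulators of mitosis and of the G1 to S transition, coactivators of nuclear receptors, splicing factors, enzymes of protein glycosylation, a subunit of the membrane-cutting ESCRT machinery, and kinases and adaptors of growth factor signalling.

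The targeted gene was checked first. CDH1 had 38542, 39643 and 39370 normalized counts across the WT libraries against 1115, 1120 and 1237 across the KO libraries, so that 2.95% of the WT mean remained. Libraries held 18281549 to 19386796 normalized counts, about 16884423 to 22451414 reads, and correlated more closely within a group (Pearson r across genes of 0.987 to 0.991) than between groups (0.934 to 0.940). Of 8 kidney epithelial markers, 7 had a row, with summed levels of 35658 to 39487 in WT and 36919 to 38489 in KO. KRT18 and EPCAM made up most of that sum, and its smaller terms did not all stay level: CLDN2, a tight junction channel, was at 982, 942 and 898 across the WT libraries and 235, 242 and 283 across the KO libraries. CDH16, kidney cadherin, was at 40.6, 32.2 and 37.6 against 141, 131 and 168. The groups did not overlap for either. A row existed for 1 of 7 fibroblast markers (PDGFRA, 17.7 to 20.6 in WT and 28.7 to 40.4 in KO), for 0 of 5 endothelial markers and for 1 of 6 immune markers. That immune row was CD79A, a B cell receptor chain, at 12390 to 14011 in WT and 13507 to 14608 in KO. The part of PDGFRA- or CD79A-expressing cells in the values below was not tested.

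All 55 members had higher counts in every KO library than in any WT library; over all 12349 tested genes, 27.8% were higher in this way. Since the members were chosen for this shift, nothing is read from that count. The median log2 fold change of the members was 0.94, a 1.92-fold higher level in KO, with an interquartile range of 0.83 to 1.18. The median over all tested genes was -0.01. KO means were under 1.5-fold of the WT mean for 4 members, from 1.5- to under 2-fold for 26, from 2- to under 3-fold for 22 and at least 3-fold for 3. The range ran from 1.30-fold for CHMP4B to 3.92-fold for ZHX3.

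The shift was of like size in each KO library. Dividing each member's count by its WT mean gave a median over members of 1.90 in KO replicate 1, 1.94 in KO replicate 2 and 1.96 in KO replicate 3. In the WT libraries the medians were 0.998, 1.01 and 0.991. Tested genes not placed in the run, among them genes without a symbol, had medians of 0.986 to 0.989 in the KO libraries. The lowest single ratio in any KO library was 1.26 and the highest in any WT library was 1.22, so no WT value of any member reached the range of the KO values.

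**Figure D1:**
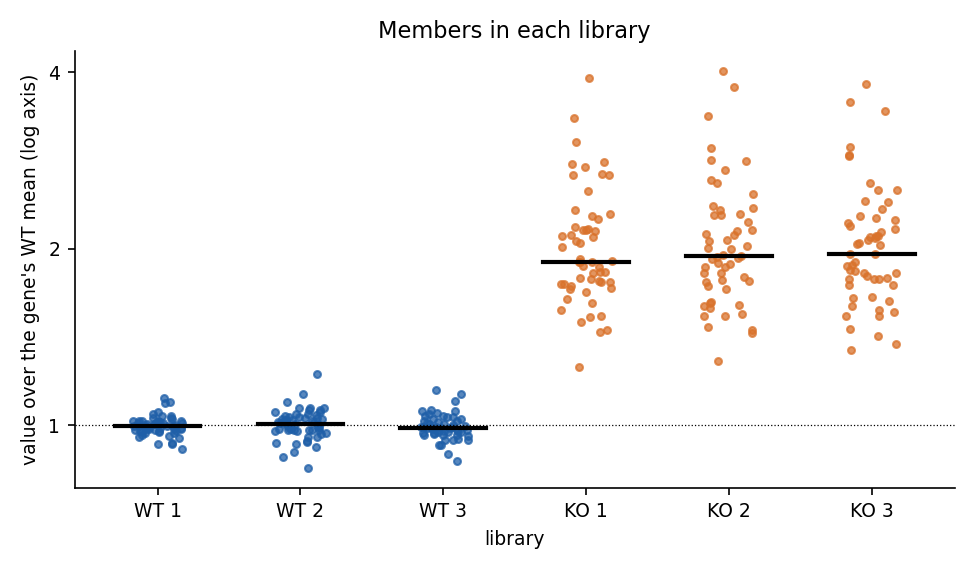
Each point is 1 of 55 members in 1 library, plotted as its normalized count over the mean of the gene's 3 WT values on a log axis, and black bars are medians over members. The WT medians lie at 0.991 to 1.01 and the KO medians at 1.90 to 1.96, with every KO point above every WT point.

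As a share of all normalized counts, the members held 0.311, 0.319 and 0.311% in the WT libraries and 0.607, 0.606 and 0.592% in the KO libraries. The group means were 0.314% ± 0.00483 in WT and 0.602% ± 0.00815 in KO (SD, n = 3), a ratio of 1.92. All 160 tested genes of the run together held 0.722% ± 0.00345 in WT and 1.38% ± 0.00438 in KO. The ratio of the members' summed normalized counts themselves was 1.84, lower than the ratio of shares, as totals were lower in the KO libraries.

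Within a group the libraries showed no common displacement of the members. Each library was compared with the other two of its group on the log2 scale, and the median over members lay between -0.02 and 0.02 in all 6 libraries. Between 21 and 31 of the 55 members were above the other two libraries in any one comparison. The coefficient of variation across the 3 libraries had a median of 3.58% in WT and 3.66% in KO. It was highest in both groups for TGIF2, which also had the fewest counts, at 19.4 and 14.9%. The next widest spread in KO was that of CHD6, whose 3 KO values were 572, 513 and 669.

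The run was selected on this same difference, so the place of its edges in gene order is given as a description. Only genes with a symbol could be placed in that order. SMOX, its first gene, encodes spermine oxidase, an enzyme of polyamine breakdown. SMOX counts were 259, 251 and 253 across the WT libraries and 772, 755 and 757 across the KO libraries, 3.00-fold higher (log2 fold change 1.58, SE 0.069). Just before it, the prion protein gene PRNP was at 582, 614 and 586 across the WT libraries and 389.6, 481 and 438 across the KO libraries, a log2 fold change of -0.45. The next genes outward with a mean of at least 100, SLC23A2, a vitamin C transporter, and TMEM230, were at -0.42 and -0.42 on the log2 scale. All 3 outside genes were thus lower in each KO library than in any WT library, on the opposite side from SMOX.

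At the other end stood UBE2V1, a catalytically inactive partner of the ubiquitin-conjugating enzyme UBE2N. UBE2V1 counts were 3051, 3021 and 2934 across the WT libraries and 4597, 4616 and 4386 across the KO libraries, 1.51-fold higher (log2 fold change 0.59, SE 0.044). The next gene outward, the transcription factor gene CEBPB, was at 887, 728 and 999.9 across the WT libraries and 937, 994 and 947 across the KO libraries, a log2 fold change of 0.15 (SE 0.097), and its groups overlapped. The phosphatase gene PTPN1 followed at a log2 fold change of -0.08 and the polarity gene PARD6B at -0.53. Over the whole chromosome, the 44 tested genes before the run had a median log2 fold change of -0.07 and the 58 after it a median of 0.08. In limma, 4 of the 44 were higher and 12 lower, and 17 of the 58 were higher and 14 lower. Among all tested genes, 23.6% were higher and 24.5% lower.

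**Figure D2:**
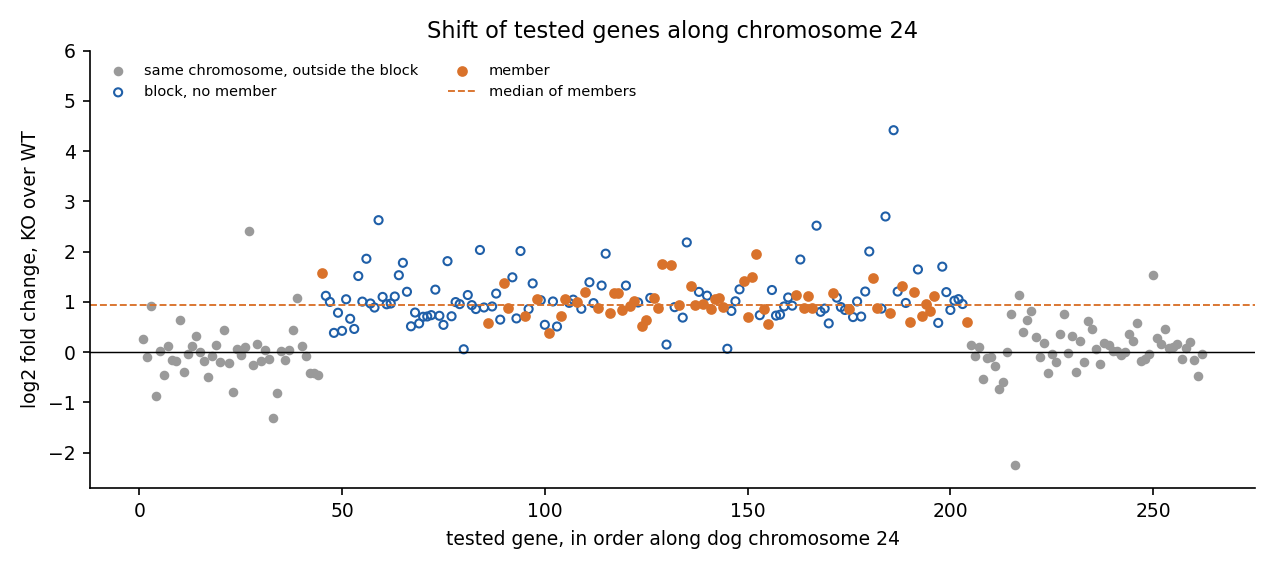
Log2 fold change of KO over WT for the tested genes of dog chromosome 24 in their order along it, with the 55 members filled in orange, the other 105 genes of the run as open circles and genes outside it in grey. The members scatter about their median of 0.94 (dashed), while the genes before and after the run have medians of -0.07 and 0.08.

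Along the run the shift had no slope. The opening 53 tested genes had a median log2 fold change of 0.95, the next 53 a median of 1.00 and the last 54 a median of 0.96. Across the 55 members, order in the run and log2 fold change had a Pearson r of -0.05, and the values of one member and the next had an r of -0.07 (Spearman rho -0.28, n = 54). These correlations are across genes measured in the same 6 libraries and are given as descriptions.

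Members with fewer counts tended to have the larger shift. Across the 55 members, the log2 mean count and the log2 fold change had a Pearson r of -0.55 and a Spearman rho of -0.47. For the 105 other genes of the run r was -0.36, and for the 12189 tested genes not placed in it -0.08. Those 12189 include genes without a symbol, which had no place in gene order, and a further row of ASXL1. Of those 105, 6 had a WT mean under 10 and passed the filter on low values through their KO counts. Genes of the run, unlike the 12189, were selected on this fold change, so nothing is read from the difference between these r values. The 27 members with the fewest counts (means of 74.0 to 991) had a median log2 fold change of 1.09, and the other 28 (means of 997 to 7228) a median of 0.88. Counts were not divided by transcript length, and both axes use the same 6 libraries.

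**Figure D3:**
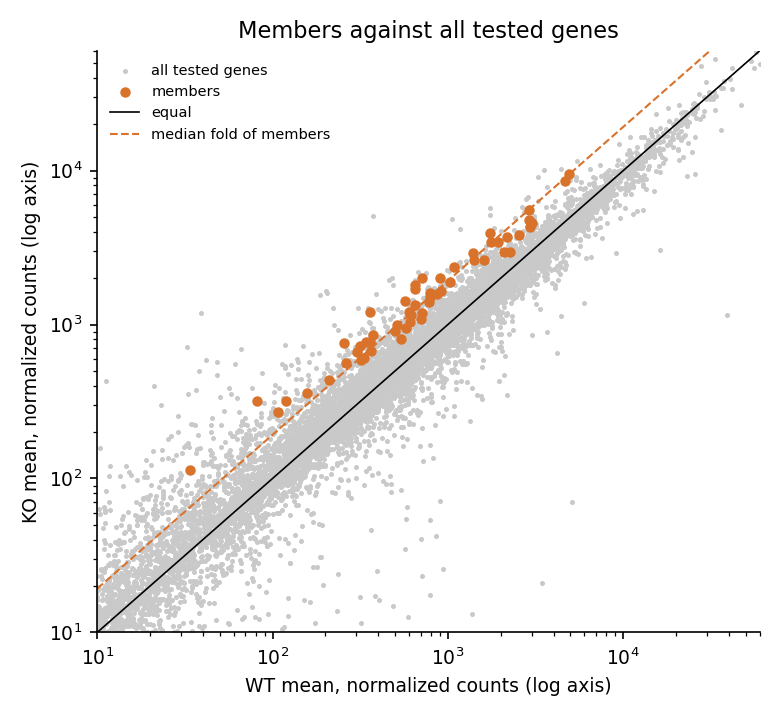
Mean normalized count in KO against that in WT on log axes for the tested genes (grey; those with either mean below 10 fall outside the axes) and the 55 members (orange), with the line of equal levels and the members' median fold of 1.92 (dashed). The members lie above the line of equal levels across WT means from 33.7 to 4897.

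The cell cycle and DNA group had 9 tested members with a median log2 fold change of 0.94. TPX2, which activates the mitotic kinase AURKA and nucleates spindle microtubules, was at 2575, 2514 and 2515 across the WT libraries and 3798, 3640 and 3960 across the KO libraries, a log2 fold change of 0.58. MAPRE1, the microtubule plus-end protein EB1, went from 2869, 3102 and 2737 to 4970, 4711 and 4637, or 1.64-fold. UBE2C, which supplies ubiquitin to the anaphase-promoting complex, went from 844, 781 and 982 to 1528, 1582 and 1597. Its 1.81-fold difference was larger than those of TPX2 and MAPRE1, and the groups were apart for all of them.

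RBL1, the pocket protein p107 that restrains E2F factors, sat exactly at the median shift of the members. Its counts were 521, 564 and 460.3 across the WT libraries and 1079, 975 and 915 across the KO libraries (1.92-fold). CSE1L, the exportin that recycles importin alpha from the nucleus, was at 1631, 1983 and 1654 across the WT libraries and 3699, 3422 and 3114 across the KO libraries (1.94-fold). CEP250, a centrosome linker protein, was 2.27-fold higher, TTI1, a chaperone cofactor of the PI3K-related kinases, 2.12-fold, and TOP1, which relaxes supercoiled DNA, 1.63-fold. SAMHD1, which degrades deoxynucleotides, was 2.52-fold higher, the largest fold of these 9 members.

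No row was named E2F1, but the row named NECAB3 carries E2F transcription factor 1 as its description. That row was at 1233, 1292 and 1261 across the WT libraries and 2523, 2562 and 2674 across the KO libraries, a log2 fold change of 1.03, and was not counted as a member. Likewise the row named RBM12 is described as copine 1, the product of CPNE1, a gene that shares its start region with RBM12. Reads of overlapping genes could not be told apart in these rows. ASXL1 stood on 2 rows with log2 fold changes of 0.87 and 1.04, of which the first, with the higher mean, was used.

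Among 12 members that act in transcription and chromatin the median log2 fold change was 0.89. The nuclear receptor coactivators did not share one value. NCOA3, a p160 coactivator, went from 367, 388 and 362 across the WT libraries to 804, 852 and 899 across the KO libraries (2.29-fold). NCOA6, a subunit of a histone methyltransferase complex, went from 608, 594 and 591 to 1134, 1150 and 1323 (2.01-fold). NCOA5 went from 614, 592 and 612 to 1062, 1046 and 999 (1.71-fold), the lowest of these coactivators, and its groups did not overlap either.

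The remaining chromatin genes ran from low to high folds. ZMYND8, a reader of histone marks, was 1.51-fold higher, PHF20, a subunit of an acetyltransferase complex, 1.56-fold, and the helicase CHD6 1.82-fold. ASXL1, a partner of the deubiquitinase BAP1, was 1.83-fold higher, the mRNA cap methyltransferase PCIF1 1.84-fold, RPRD1B, which binds the tail of RNA polymerase II, 1.87-fold, and the corepressor CBFA2T2 2.08-fold.

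A pair of homeobox repressors in this group stood apart from the rest. ZHX3 had the largest shift of all 55 members, from 77.5, 87.3 and 79.8 across the WT libraries to 319, 329 and 312 across the KO libraries (3.92-fold; log2 fold change 1.96, SE 0.104). TGIF2, a corepressor of TGF-beta and SMAD signalling, was at 30.7, 41.2 and 29.3 across the WT libraries and 95.0, 127 and 120.2 across the KO libraries (3.39-fold; log2 fold change 1.73, SE 0.183). The lowest KO value of ZHX3 was 3.57 times its highest WT value. For TGIF2 the counts were few and the error was the widest of all members.

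In the RNA processing and translation group, 9 members had a median log2 fold change of 0.87. The splicing regulators were on the low side: RBM39 was 1.43-fold higher and SRSF6, an SR protein, 1.48-fold. EIF6, which keeps ribosomal subunits apart, was 1.71-fold higher, STAU1, a binder of double-stranded RNA, 1.77-fold, and AAR2, which assembles the U5 particle of the spliceosome, 1.83-fold. The row named RBM12 was 1.89-fold higher, CTNNBL1, a spliceosome-associated protein, 2.08-fold, and the helicases DDX27 and DHX35 2.18-fold and 2.69-fold. DHX35, at a log2 fold change of 1.43, stood just inside the distance at which a member was counted as departing.

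The secretory and endosomal group held the lowest shift of all 55 members. CHMP4B, the filament-forming subunit of ESCRT-III that cuts membranes in endosomes and at the end of cell division, was at 2202, 2221 and 2386 across the WT libraries and 2855, 2917 and 3047 across the KO libraries (1.30-fold; log2 fold change 0.37, SE 0.050). Its lowest KO value was 1.20 times its highest WT value, the narrowest gap of any member. CTSA, the lysosomal protective protein cathepsin A, lay at the other end of the group, at 652, 640.2 and 663 across the WT libraries and 1742, 1839 and 1875 across the KO libraries (2.79-fold; log2 fold change 1.48, SE 0.055).

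Between them stood the glycosylation genes. RPN2, a subunit of the oligosaccharyltransferase that attaches N-glycans, had the most counts of any member, at 4861, 4953 and 4875 across the WT libraries and 9283, 9808 and 9587 across the KO libraries (1.95-fold). PIGT, of the enzyme that attaches GPI anchors, was 2.25-fold higher, and POFUT1, which adds fucose to Notch receptors, 2.60-fold. EDEM2, which trims mannose from misfolded glycoproteins, was 1.84-fold higher, and ERGIC3, a cargo receptor between endoplasmic reticulum and Golgi, 1.79-fold. ARFGEF2, an activator of ARF GTPases, was 1.65-fold higher and the membrane protein gene SERINC3 2.20-fold. The 9 members of this group had a median log2 fold change of 0.96.

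The 5 tested metabolic and mitochondrial members had a median log2 fold change of 1.18 and a lowest value of 1.02. SMOX at the edge of the run led them. GSS, glutathione synthetase, was 2.31-fold higher. UQCC1, an assembly factor of respiratory complex III, was 2.26-fold higher, TOMM34, a cochaperone of mitochondrial import, 2.16-fold, and NFS1, the cysteine desulfurase that supplies sulfur for iron-sulfur clusters, 2.03-fold.

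Signalling and cytoskeleton genes, 9 tested members, had a median log2 fold change of 1.06. PLCG1, the phospholipase C that acts below growth factor receptors, went from 717, 700.1 and 713 across the WT libraries to 1982, 2014 and 2056 across the KO libraries (2.84-fold; log2 fold change 1.51, SE 0.052). DLGAP4, a scaffold of the guanylate kinase-associated family, went from 362, 366 and 343 to 1194, 1204 and 1225 (3.38-fold; log2 fold change 1.76, SE 0.063). Both were above the common shift, PLCG1 by 0.56 and DLGAP4 by 0.81 on the log2 scale, and the libraries of each group lay close together.

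The other signalling members lay within 0.5 of the members' median log2 fold change. STK4, the Hippo pathway kinase MST1, was at 1373, 1418 and 1426 across the WT libraries and 2495, 2475 and 2858 across the KO libraries (1.86-fold). YWHAB, an adaptor that binds phosphorylated serine, was at 4598, 4582 and 4849 across the WT libraries and 8556, 8707 and 8395 across the KO libraries (1.83-fold). NDRG3 was at 785, 841 and 751 across the WT libraries and 1503, 1531 and 1504 across the KO libraries (1.91-fold), next to the exact median. BLCAP was 1.81-fold higher, DYNLRB1, a light chain of dynein, 2.09-fold, and EPB41L1, a membrane cytoskeleton protein, 2.12-fold. ELMO2, which activates RAC1 with DOCK proteins, had a log2 fold change of 1.32.

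The ubiquitin group was the lowest, with 2 tested members. ITCH, an E3 ligase of the NEDD4 family, was at 734, 747 and 660.3 across the WT libraries and 1296, 1155 and 1095 across the KO libraries (1.66-fold), and UBE2V1 at the edge of the run was 1.51-fold higher. With 2 genes, the group's median of 0.66 rests on both.

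In all, 7 members departed from the median shift by more than 0.5 on the log2 scale, and 48 did not. Those above it were CTSA, PLCG1, SMOX, TGIF2, DLGAP4 and ZHX3; CHMP4B alone was below. Over all tested genes, 11.7% lay within 0.5 of the members' median. Just outside the distance stood CTSA (1.48), PLCG1 (1.51) and CHMP4B (0.37). Just inside it stood DHX35 (1.43), POFUT1 (1.38) and RBM39 (0.51). For CTSA and DHX35 the side taken depended on single libraries: without WT replicate 2, CTSA was not counted, and without WT replicate 1 or KO replicate 3, DHX35 was. These 7 came from 4 different role groups, and their numbers along the run were spread from its first gene to gene 137 of 160.

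**Figure D4:**
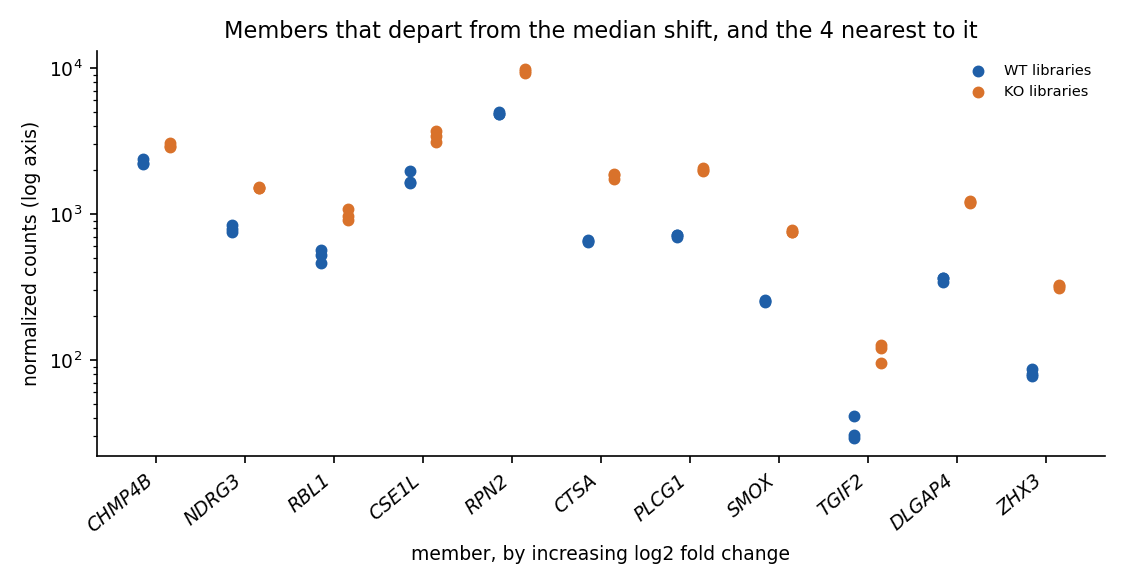
Normalized counts on a log axis in the 3 WT (blue) and 3 KO (orange) libraries for the 7 members that depart from the median shift and the 4 nearest to it, ordered by log2 fold change from CHMP4B at 0.37 to ZHX3 at 1.96. No gene shown has overlapping groups.

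The proteins of the run work with products of genes elsewhere in the genome, and these partners were looked at next. A list of 130 paralogues, complex subunits and pathway neighbours outside the run was drawn up by role, of which 113 were tested. In limma, 20 were higher, 34 were lower and 59 did not pass, against backgrounds of 23.6% higher and 24.5% lower over all tested genes. Their median log2 fold change was -0.06, beside 0.94 for the members. Within 0.5 of the members' median lay 2 of the 113, beside 11.7% of all tested genes.

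**Figure D5:**
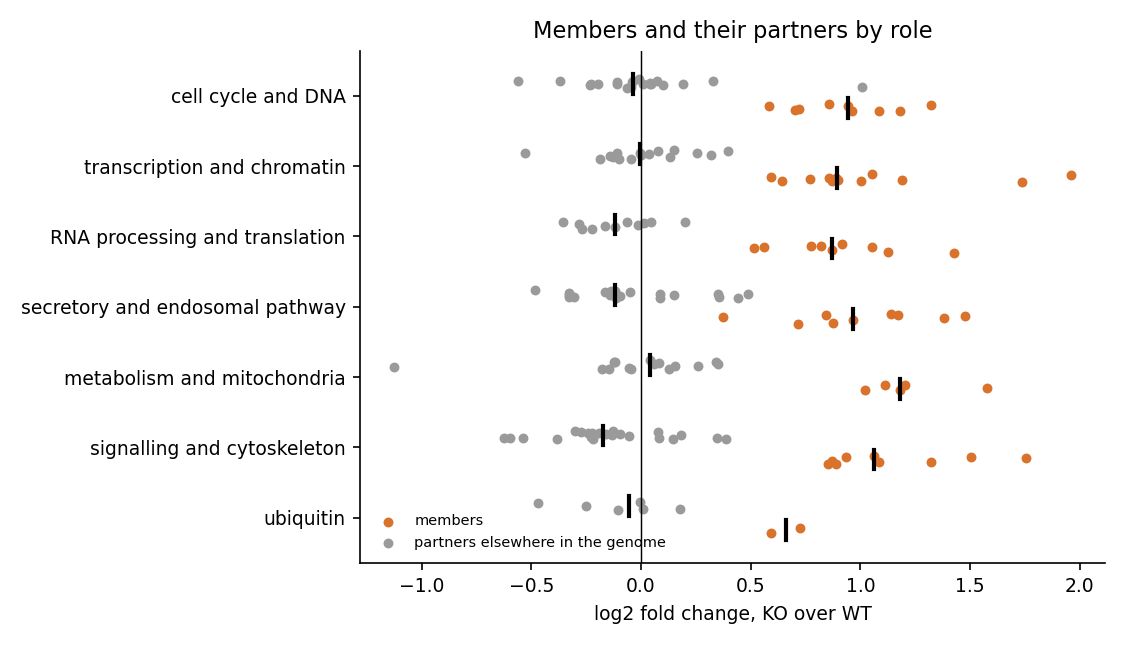
Log2 fold change of KO over WT for the 55 members (orange) and 113 tested partners elsewhere in the genome (grey) in 7 role groups, with black bars at the medians. Member medians lie between 0.66 and 1.18 and partner medians between -0.17 and 0.04.

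Around the cell cycle members, 3 of 21 partners rose and 5 fell. MAPRE2, a paralogue of MAPRE1, rose from 128, 153 and 155 across the WT libraries to 271, 303 and 303 across the KO libraries (log2 fold change 1.01, SE 0.107, limma adjusted p = 3.68e-06). MAPRE3, a further paralogue, fell (log2 fold change -0.56, limma adjusted p = 0.00536). CDC27, a subunit of the anaphase-promoting complex that UBE2C serves, fell by 0.37 on the log2 scale (limma adjusted p = 0.000204). UBE2S, which extends the ubiquitin chains that UBE2C starts, fell by 0.23 (limma adjusted p = 0.00216). CDC20, another cell cycle partner on the list, rose by 0.19 on the log2 scale (limma adjusted p = 0.00958). Of 16 transcription partners, 4 rose and 1 fell. NCOA1 and NCOA2, paralogues of NCOA3, rose by 0.40 and 0.32 on the log2 scale. The CHD6 paralogue CHD9 fell 1.43-fold, while CHD7 and CHD8, also on the list, did not pass (log2 fold changes -0.0011 and 0.03). Of 11 RNA processing partners, 1 rose and 5 fell, with the SR protein gene SRSF1 up 1.15-fold, SRSF5 down 1.22-fold and the spliceosome subunit gene PLRG1 down 1.28-fold.

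Of 22 partners in the secretory and endosomal group, 4 rose and 8 fell. GPAA1 and PIGS, subunits of the same GPI transamidase as PIGT, rose 1.28-fold and 1.36-fold (limma adjusted p = 8.10e-06 and 1.47e-05). PIGK, a further subunit on the list, did not pass (log2 fold change -0.12, limma adjusted p = 0.246). CHMP5, of the ESCRT machinery, fell from 1819, 2021 and 2065 to 1333, 1396 and 1493 (log2 fold change -0.48, SE 0.062, limma adjusted p = 2.38e-05).

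Of 15 metabolic partners, 4 rose and 2 fell. GCLC, the catalytic subunit of the enzyme before GSS in glutathione synthesis, fell from 4174, 4487 and 4086 to 1964, 1991 and 1884 (log2 fold change -1.13, SE 0.050, limma adjusted p = 6.87e-10). GCLM, the other subunit of that enzyme, did not pass (log2 fold change 0.06, limma adjusted p = 0.362). SRM, spermidine synthase, rose 1.20-fold and SAT1, which acetylates polyamines, 1.27-fold (limma adjusted p = 0.00171 and 0.00212). Of 22 signalling partners, 4 rose and 11 fell. YWHAQ, a paralogue of YWHAB, fell from 20166, 21303 and 19992 to 13658, 13589 and 13383 (log2 fold change -0.60, limma adjusted p = 2.04e-08). EPB41, a paralogue of EPB41L1, fell 1.54-fold, and MOB1A, which acts with STK4 in the Hippo pathway, 1.46-fold (limma adjusted p = 1.25e-07 and 3.51e-05). EPB41L2, a further paralogue of EPB41L1, rose 1.31-fold (limma adjusted p = 0.000729).

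Of 6 ubiquitin partners, 0 rose, 2 fell and 4 did not pass in limma. NEDD4L, a relative of ITCH, fell 1.39-fold (adjusted p = 3.05e-07 in limma), and UBE2V2, the paralogue of UBE2V1, fell 1.19-fold (limma adjusted p = 0.0114). The UBE2V2 call was lost without KO replicate 3 (limma adjusted p = 0.0529). UBE2N, the shared enzyme of UBE2V1 and UBE2V2, had a log2 fold change of -0.0034 (limma adjusted p = 0.973). Whether a member and its partner differed in fold was not tested, since the members had been chosen for theirs.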

How the data were processed

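Poly-A RNA from 3 WT and 3 KO libraries of MDCK type II cells was sequenced as stranded paired-end libraries, per the labels' protocols. Per the submitters' processing notes, the tools included DESeq2 1.14.1, featureCounts, STAR 2.5.2b, Picard 2.8.1 and FastQC, with no role given; the sources used here name no build, annotation or counting strand. A table of 12851 genes was deposited, with a normalized count per library (a signal, not whole reads). Per the file headers it also holds the authors' mean, log2 fold change with its error, a score, and p-values before and after adjustment. Low values (under 12) lay within 0.1 of a multiple of a common step for 72.2 to 81.0% of values, too few for a count test; the step gives the approximate reads.

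Values were tested on log2(value + 1) with limma 3.58.1 in R 4.3.3 (trend and robust options, statmod 1.5.0, two-sided, Benjamini-Hochberg over the 12349 genes with a mean of at least 10); this scale understates the fold of low genes. The fit was tested on simulated data. Members follow the deposited symbols, with the highest-mean row where a symbol repeats. Gene order, and nothing else, came from RefSeq's UU_Cfam_GSD_1.0 assembly of the dog. Genes were placed by symbol, and 9788 of 10003 tested symbols (97.9%) had a place. The 2430 rows without a symbol were not placed, so genes in or beside the run may be missing from it. Members, role groups and partner lists were chosen with earlier results of these data known. Named genes were the departing members, the 4 nearest the median, the first and the last, a set chosen for their roles, the 3 nearest genes on each side of the run, and up to 3 called partners per role by smallest adjusted p; other names were chosen after their values were seen. Summaries and figures were made in Python 3.11.15 with pandas 2.3.3 and matplotlib 3.10.9. Alternatives were other pseudocounts, filters, scalings and limma options, a replicate block, leaving out each library, and the authors' own values. Promoter and protein sequences were not used here.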

Additional observations from a re-analysis of the deposited data

Results flagged for a closer look

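The authors' deposited mean per gene, a column outside the comparison of KO with WT, also carried a signal for the members. The mean of the 6 libraries was at most 1.5 times that deposited mean, a ceiling that 60 genes met to within 1e-06 and that a mean over 9 libraries gives. On that reading, the deposited mean implies a level for 3 further libraries as a group. These libraries are not analysed here in any other way, their cells are not known, and no spread or test can be given for them.

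The implied level was above every WT library for 54 of the 55 members, or 98.2%, beside 41.5% of all 9788 placed tested genes. Its median log2 ratio to the WT mean was 1.00 over the members, with an interquartile range of 0.77 to 1.30. The exception was BLCAP, implied at 921 against a WT mean of 908 and a KO mean of 1642. At the other end, EPB41L1 was implied at 1164, with a WT mean of 263 and a KO mean of 559. The 105 other tested genes of the run had a median of 1.00.

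Unlike the difference between KO and WT, this one did not stop at SMOX. The 44 tested genes before the run had a median log2 ratio of 0.93, and the 58 after UBE2V1 a median of 0.46. The 9526 placed tested genes of other chromosomes had a median of -0.04. Both ratios are taken against the same WT libraries, so the members' values under one are no independent evidence for the other.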

How the results depend on the processing

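Under 15 refits (other pseudocounts, filters, scalings and limma options, a replicate block and each library left out), all 825 fitted log2 fold changes of the members stayed above 0, and none moved by more than 1.11-fold. The median log2 fold change of the members went from 0.94 to 0.98 under upper-quartile scaling and to 0.97 over all tested genes of the run, an alternative added after the data were seen; with each library left out it ranged from 0.93 to 0.98. The count of departing members was 15 at a distance of 0.35 and 3 at 0.75, and 6 to 8 with each library left out. Partners called numbered 41 to 56 of 113 against 54, and genes called overall 5067 to 6118 against 5941. The split of calls moved with upper-quartile scaling, from 20 higher and 34 lower to 22 and 26 for the partners and from 2920 and 3021 to 3340 and 2590 for all tested genes; 49.1% and 56.3% of the latter calls were higher. The replicate numbers do not pair the libraries (correlations of same-numbered deviations from -0.040 to 0.054), and with the replicate block 56 partners and 6118 genes were called, with a median shift of 0.94. Depth limits TGIF2 most, at 29.3 to 41.2 normalized counts in WT.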

Other observations

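The run also holds 105 tested genes outside the member list. Their median log2 fold change was 0.98, given as a description, since the run was selected on this difference, and 6 of them had a WT mean under 10 and passed the filter on low values through their KO counts. Within 0.5 of the members' median lay 82, with 18 above and 5 below. The genes in this paragraph are named after their values were seen. Below were MAVS, the adaptor of antiviral RNA sensors (log2 fold change 0.38), the cell cycle phosphatase gene CDC25B (0.42), and TRIB3, KIAA1755 and MYL9, whose groups overlapped. TRIB3, a pseudokinase gene induced in the integrated stress response, was at 1888, 1815 and 2030 across the WT libraries and 2005, 2074 and 1887 across the KO libraries, a log2 fold change of 0.06 (SE 0.057). KIAA1755 was at 723, 655 and 781 across the WT libraries and 716, 704 and 846 across the KO libraries. Genes on either side of both were shifted. At the other extreme, the TNF receptor family gene CD40 went from 36.4, 26.6 and 34.4 across the WT libraries to 659, 729 and 741 across the KO libraries, 21.9-fold, and LZTS3 from 113, 115 and 124 to 754, 727 and 711, 6.22-fold. MMP9, a matrix metalloproteinase gene and 1 of those 6, went from 4.57, 2.67 and 5.17 to 30.5, 26.2 and 39.4.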
